A study of Capra hircus with 36 samples.

Results

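The upstream miRNAs of the DLK1-DIO3 locus, several of which lie opposite the retrotransposon-derived gene RTL1, were described across 6 tissues of goats from 2 altitudes. Members were chosen by name: every mature miRNA listed as chi-miR-127, chi-miR-136, chi-miR-337, chi-miR-370, chi-miR-431, chi-miR-432, chi-miR-433, chi-miR-493 or chi-miR-665, either arm and any copy, also where the name begins with "conserve-". This gave 14 of the 1391 mature miRNAs counted. miR-127, miR-136, miR-432 and miR-493 were each listed with both arms, miR-665 with 5 mature forms and miR-370 with 1. No mature form was listed for miR-337, miR-431 or miR-433. In the RefSeq table of assembly ARS1.2 the genes MIR433, MIR127, MIR432 and MIR136 lie within the span of RTL1 on chromosome 21, while MIR493 and MIR665 lie between DLK1 and RTL1. That table gives no strand, so the antisense position was not checked.

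DLK1-DIO3 is an imprinted locus, in which the protein genes DLK1, RTL1 and DIO3 are expressed from the paternal chromosome and the long non-coding RNAs and miRNAs from the maternal one. The miRNAs opposite RTL1 are fully complementary to its transcript, and miR-127 and miR-136 are known to direct its cleavage. The locus is known for high expression in embryo, placenta and brain, and for its decline in many tissues after birth, and in skeletal muscle it is known from the callipyge phenotype of sheep.

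Small RNA was sequenced from longissimus muscle, spleen, lung, liver, kidney and heart of 6 adult female goats of about 3 years. The high-altitude group was 3 animals of the Tibetan Goat population, living at 3000 m, and the low-altitude group was 3 animals of the Chuandong White Goat population, living at 600 m. Breed and altitude therefore cannot be told apart. Each of the 12 combinations of tissue and altitude had 3 libraries, 36 in all, with totals from 7108635 to 14407748 counts. Values are given as RPM, the reads of a miRNA times 1e6 over the sum of the counts of all listed miRNAs in the library, and 3 counts correspond to 0.208 to 0.422 RPM. Levels of the 3 miRNAs given for every library were also compared on TMM-scaled counts (CPM), the scaling of the edgeR fits, a choice made after seeing the data. A level in bulk tissue does not separate fewer cells of a type from less RNA per cell, which cannot be told apart here.

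One muscle library stood apart from the rest, that of low-altitude replicate 3. The 14 members summed to 20230 RPM there, against 727 to 2641 RPM in the other 5 muscle libraries, and results that rest on it are given with and without it. Its total of 12360095 counts lay within the range of the other libraries. It carried the muscle miRNAs: the 3 skeletal muscle markers miR-206-3p, miR-1-3p and miR-133a-3p summed to 288443 RPM, against 238582, 246085 and 182812 RPM in the high-altitude muscle libraries and 258292 and 277656 RPM in the other low-altitude ones. In each of them miR-133a-3p was the most abundant of the 3. Among the 6 tissues, marker lists separated heart, liver and lung from every library of other tissues. The skeletal muscle, kidney and spleen lists did not: low-altitude heart replicate 3 reached 208016 RPM of the muscle list, high-altitude muscle replicate 3 reached 204144 RPM of the kidney list, and high-altitude liver replicate 1 reached 22767 RPM of the spleen and leukocyte list. Of the kidney list in that muscle library, 203782 RPM was miR-10b-5p.

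The members took 0.603% of all counts, and miR-127-3p alone made up 90.8% of the members' counts. In single libraries the members' share ran from 0.0727% to 2.02%, with a median of 0.412%. There were 7 members with a mean of at least 10 RPM in at least 1 tissue, namely both arms of miR-127, miR-136 and miR-493, and miR-432-5p. The other 7 were scarce and are described after them. Reads were found in all 36 libraries for 6 members.

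chi-miR-127-3p, from a hairpin inside RTL1, was the most abundant member in every library. In kidney it was measured at 12636, 12687 and 12941 RPM in the 3 high-altitude libraries and at 11569, 12515 and 15453 RPM in the 3 low-altitude ones. In liver the high-altitude libraries had 2616, 3235 and 3729 RPM and the low-altitude ones 10709, 5335 and 10903 RPM. Kidney was thus high in all libraries of both groups, which overlapped, while in liver every high-altitude library was below every low-altitude one. In lung the values were 4001, 6688 and 4059 RPM at high altitude and 2954, 3756 and 3278 RPM at low altitude. In heart they were 4819, 2319 and 4660.0 RPM at high altitude and 3109, 4356 and 1986 RPM at low altitude. The lung libraries of high altitude lay above those of low altitude, with replicate 2 the highest in RPM, and the heart groups overlapped. In spleen miR-127-3p was at 2148, 3511 and 2325 RPM at high altitude and at 3078, 3857 and 3124 RPM at low altitude. In muscle it was at 683, 916 and 719.8 RPM at high altitude and at 1716, 2344 and 16553 RPM at low altitude. The spleen groups overlapped, and in muscle the high-altitude libraries were the lowest of all 36 in RPM while low-altitude replicate 3 was the highest. With TMM scaling low-altitude kidney replicate 1, at 21049 CPM, was above that muscle library, at 19361.5 CPM, high-altitude spleen replicate 3 was among the lowest, and the liver groups overlapped, while the gaps in lung and muscle remained.

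By mean RPM, miR-127-3p was ordered kidney, liver, lung, muscle, heart and spleen, with 12967 ± 1306 RPM (SD, n = 6) in kidney and 3007 ± 663 RPM (SD, n = 6) in spleen. The muscle mean of 3822 ± 6271 RPM (SD, n = 6) fell to 1276 ± 729 RPM (SD, n = 5) without low-altitude replicate 3, below every other tissue. With TMM scaling the order was kidney, muscle, liver, heart, lung and spleen, and muscle without that library, at 2368 CPM, was above spleen, at 2299.9 CPM. Only the first and last places were the same on both scales. Neighbours in this order were compared within goat by an exact sign-flip test (both sides) of log2(RPM + 1), for which 6 goats give 64 assignments and a smallest possible p of 0.0312. Kidney was above liver in 6 of 6 goats, by 1.31 ± 0.86 (SD) on the log2 scale (exact p = 0.0312, 0.234 after adjustment over the 15 neighbour comparisons of 3 miRNAs). The other 4 neighbouring pairs had exact p from 0.156 to 0.594. An adjusted p under 0.05 would have needed the smallest possible p in at least 10 of the 15 comparisons, and the pairs came from the order of the same values, so the counts of goats are a description. Muscle was above heart in 1 of 6 goats, and without low-altitude muscle replicate 3 in 0 of 5, at -1.72 ± 0.96 (SD; exact p = 0.0625, the smallest that 5 goats allow). Lung was then above muscle in 5 of 5 goats, at 1.87 ± 1.05 (SD; exact p = 0.0625). This count held in RPM only. With TMM scaling lung was below muscle in low-altitude goats 1 and 2, at 2140 against 3232 CPM and 2387 against 4328 CPM. It was above muscle in all high-altitude goats.

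chi-miR-136-3p, from the last of the 4 hairpins inside RTL1 in the order of the table, was less abundant. In kidney it was at 423, 1579 and 337 RPM at high altitude and at 289, 469.6 and 1119.6 RPM at low altitude. In liver it was at 126.9, 366 and 143 RPM at high altitude and at 284, 227 and 325 RPM at low altitude. In both tissues the groups overlapped, and in kidney a single library of each group was above the rest of its group. In lung the values were 121, 329 and 93.4 RPM at high altitude and 91.3, 159 and 156 RPM at low altitude. In heart they were 104, 100.8 and 98.3 RPM at high altitude and 84.5, 109 and 89.5 RPM at low altitude. Heart was the most even tissue for this miRNA, and lung replicate 2 of high altitude was the highest lung library. In spleen it was at 100.1, 392 and 256 RPM at high altitude and at 178, 153 and 188 RPM at low altitude. In muscle it was at 25.0, 221 and 27.2 RPM at high altitude and at 143, 169.9 and 2217 RPM at low altitude. The groups overlapped in spleen and, through high-altitude replicate 2, in muscle, and low-altitude muscle replicate 3 was the highest of all 36 libraries.

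The mean RPM of miR-136-3p was highest in kidney, at 703 ± 525 RPM (SD, n = 6), followed by muscle, liver, spleen, lung and heart, with 97.8 ± 9.27 RPM (SD, n = 6) in heart. The muscle mean was 467 ± 861 RPM (SD, n = 6), and 117 ± 87.8 RPM (SD, n = 5) without low-altitude replicate 3. With TMM scaling heart and lung changed places, and muscle without that library, at 198 CPM, was above liver, at 185 CPM. The 5 neighbouring pairs had exact sign-flip p from 0.0625 to 0.406 over the 6 goats. Without low-altitude muscle replicate 3, muscle was below kidney and below liver in 5 of 5 goats (exact p = 0.0625 for each). With TMM scaling muscle was still below kidney in each of these goats. It was above liver in high-altitude goat 2, at 293 against 242 CPM. So it was in low-altitude goats 1 and 2, at 270 against 235 CPM and 314 against 140 CPM. In high-altitude goats 1 and 3 muscle remained below liver.

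chi-miR-432-5p, from a hairpin between those of miR-127 and miR-136, was lower still. In lung it was at 44.4, 140.5 and 13.5 RPM at high altitude and at 19.5, 33.7 and 31.3 RPM at low altitude. In liver it was at 10.2, 79.4 and 22.7 RPM at high altitude and at 49.5, 35.6 and 57.0 RPM at low altitude. The groups overlapped in both tissues, and the high-altitude replicates were widely spread with replicate 2 the highest. In kidney the values were 19.5, 60.2 and 13.0 RPM at high altitude and 7.09, 48.8 and 78.4 RPM at low altitude. In heart they were 8.57, 11.4 and 15.5 RPM at high altitude and 9.09, 10.6 and 18.9 RPM at low altitude. Both tissues overlapped between altitudes, and heart was low throughout. In spleen miR-432-5p was at 16.5, 14.1 and 17.7 RPM at high altitude and at 19.1, 25.1 and 18.7 RPM at low altitude. In muscle it was at 2.78, 15.1 and 5.24 RPM at high altitude and at 15.5, 17.6 and 198 RPM at low altitude. In spleen and muscle every high-altitude library was below every low-altitude one, by a narrow gap apart from muscle replicate 3 of low altitude. With TMM scaling the spleen groups overlapped and the gap in muscle remained.

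The order of mean RPM of miR-432-5p was lung, liver, muscle, kidney, spleen and heart, from 47.2 ± 47.0 RPM (SD, n = 6) in lung to 12.3 ± 4.03 RPM (SD, n = 6) in heart. Muscle moved from 42.4 ± 76.5 RPM (SD, n = 6) to 11.3 ± 6.73 RPM (SD, n = 5) without low-altitude replicate 3, the lowest of the tissues. With TMM scaling the order was muscle, kidney, liver, lung, heart and spleen, and muscle without that library, at 19.8 CPM, was above heart, at 16.0 CPM, and spleen, at 14.3 CPM. The 5 neighbouring pairs had exact sign-flip p from 0.0625 to 0.938 over the 6 goats. Without low-altitude muscle replicate 3, muscle was below liver in 5 of 5 goats (exact p = 0.0625) and below kidney in 4 of 5 (exact p = 0.125). With TMM scaling muscle was above liver in low-altitude goat 2, at 32.5 against 21.9 CPM, and below it in the rest of these goats.

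**Figure D1:**
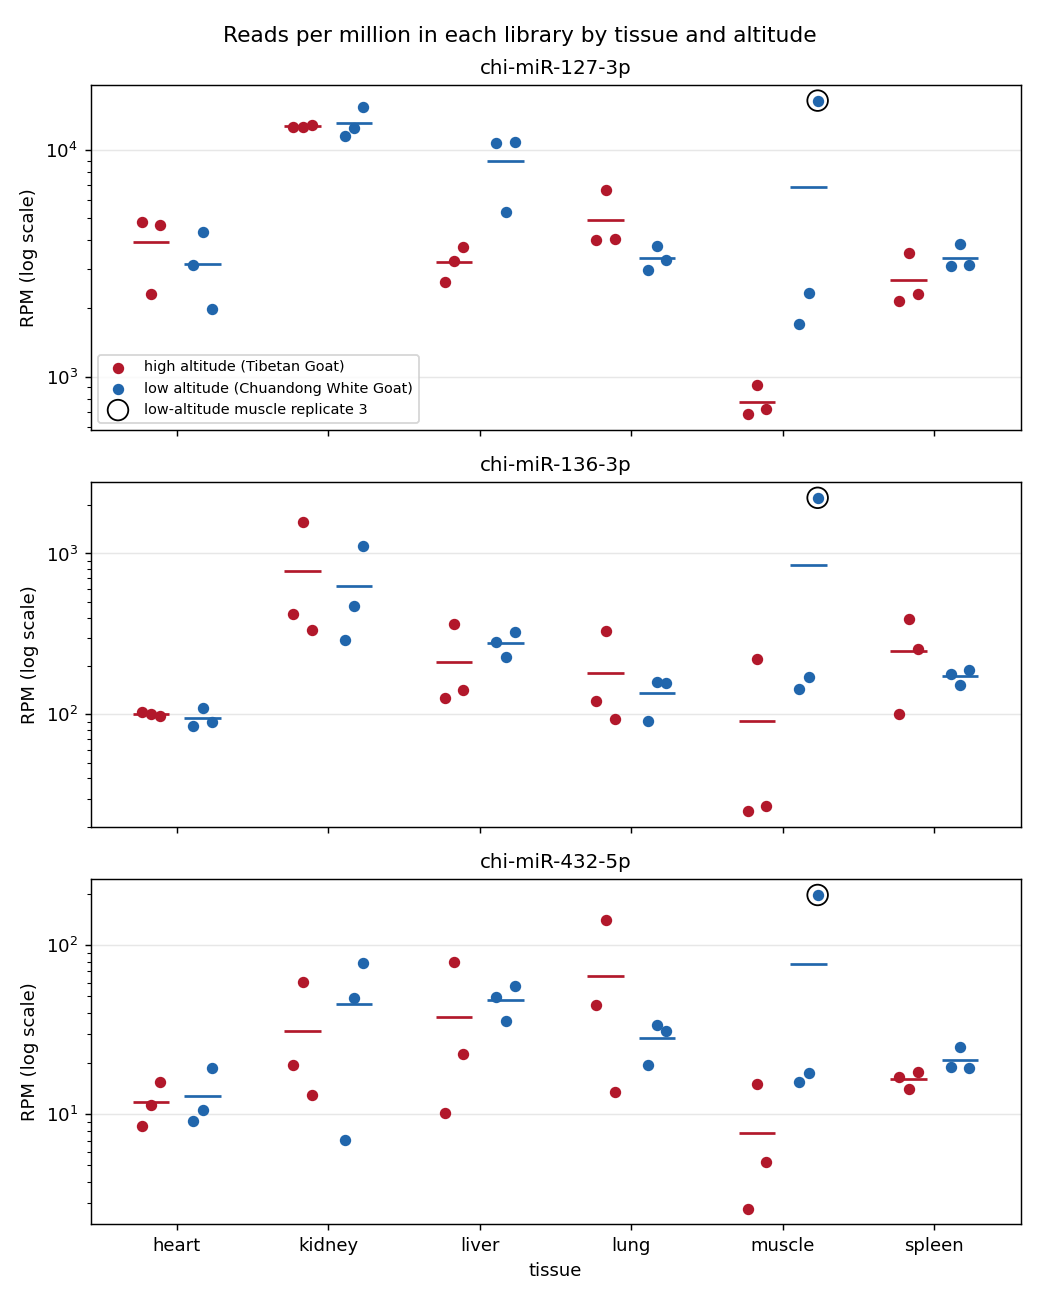
RPM on a log axis of miR-127-3p, miR-136-3p and miR-432-5p in each of the 36 libraries by tissue, with a point for each library, red for high and blue for low altitude, and a line at the mean of each group of 3. The ringed point is low-altitude muscle replicate 3, at 16553, 2217 and 198 RPM, above every other library in each panel.

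The other 4 of the 7 members were below miR-127-3p and miR-136-3p in every tissue mean. miR-127-5p averaged 26.0 ± 6.40 RPM (SD, n = 6) in kidney, 11.5 ± 7.01 in liver, 7.67 ± 6.03 in spleen, 7.10 ± 6.83 in lung, 6.03 ± 1.84 in heart and 18.2 ± 36.7 in muscle. miR-136-5p averaged 339 ± 245 RPM (SD, n = 6) in kidney, 121 ± 53.0 in spleen, 105 ± 42.6 in liver, 58.3 ± 27.2 in lung, 40.4 ± 10.8 in heart and 114 ± 197 in muscle. Kidney had the highest mean of both, and in muscle the SD exceeded the mean. miR-493-5p, encoded upstream of RTL1, averaged 54.6 ± 23.0 RPM (SD, n = 6) in kidney, 27.1 ± 10.9 in spleen, 24.2 ± 13.6 in liver, 11.7 ± 4.59 in lung, 8.93 ± 2.27 in heart and 71.0 ± 129 in muscle. miR-493-3p averaged 58.8 ± 26.4 RPM (SD, n = 6) in kidney, 30.8 ± 11.3 in spleen, 16.6 ± 13.3 in liver, 12.1 ± 5.44 in lung, 9.33 ± 5.07 in heart and 56.9 ± 115 in muscle. Without low-altitude replicate 3 the muscle means over 5 libraries were 3.26 RPM for miR-127-5p, 33.8 RPM for miR-136-5p, 18.6 RPM for miR-493-5p and 9.92 RPM for miR-493-3p. With TMM scaling these means were 6.05, 59.0, 33.5 and 17.8 CPM. Muscle was then above spleen, at 5.44 CPM of miR-127-5p and 20.9 CPM of miR-493-5p, where it was below spleen in RPM.

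The 7 scarce members had at most 328 counts in a library. That maximum was of miR-665-3p, found in 27 libraries with 1393 counts in all, and it too fell in low-altitude muscle replicate 3. miR-665-5p had 54 counts over 19 libraries and miR-432-3p 45 counts over 17 libraries. The conserve-named miR-370-5p had 153 counts over 19 libraries, of which 85 were in high-altitude heart replicate 2. The conserve-named miR-665-5p had 40 counts in 5 libraries, 4 of them liver. The conserve-named miR-665-3p and miR-665-1-5p were each found in a single spleen library, with 3 and 4 counts.

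Differences between tissues were tested in 1 edgeR quasi-likelihood fit over all 36 libraries. The test across the 6 tissues called 6 of the 14 members at an adjusted p under 0.05, against 39.3% of all 1391 miRNAs, so the members' share was near the background. These were both arms of miR-127 and miR-136, miR-493-5p and the conserve-named miR-665-5p. With goat as a replicate block 5 were called, without miR-665-5p, against 34.2% of all miRNAs. miR-432-5p was not called (edgeR adjusted p = 0.126). Against the mean of the other 5 tissues, kidney was higher for 6 of 14 members by the call rule of an adjusted p under 0.05 and a log2 fold change of at least 1.5, against 10.1% of all miRNAs. They were both arms of miR-127, miR-136 and miR-493. The same 6 were called with goat as a replicate block, among 118 of all 1391 miRNAs higher in kidney. miR-127-3p was higher in kidney by 2.07 ± 0.24 (SE) on the log2 scale (edgeR adjusted p = 1.22e-07), and by 2.31 ± 0.18 (SE) without low-altitude muscle replicate 3. miR-136-3p was higher by 1.87 ± 0.31 (SE, edgeR adjusted p = 3.66e-05). miR-432-5p was at 0.46 ± 0.37 (SE, edgeR adjusted p = 0.717) and was not called. In liver against the other tissues 1 member was called, the conserve-named miR-665-5p with 40 counts in all, at a log2 fold change of 5.46 (edgeR adjusted p = 0.00223), against 12.1% of all miRNAs. Of the 88 miRNAs of the downstream clusters of the locus, 42 were called higher in kidney. By an adjusted p under 0.05 alone, 3 members were lower in lung, against 230 of all 1391 miRNAs in either direction. They were miR-136-3p, at -1.20, miR-136-5p, at -1.38, and miR-493-5p, at -1.48, all under the fold threshold. In spleen 1 member was lower, miR-127-3p at -1.12 (edgeR adjusted p = 0.00809), against 271 of all miRNAs.

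Muscle against the mean of the other 5 tissues gave 0 called members with edgeR, against 13.7% of all miRNAs, and 3 members, miR-136-3p, miR-493-5p and miR-665-3p, at an unadjusted p under 0.05, against 23.6% of all miRNAs. No other tool was run for this contrast. With goat as a replicate block, miR-493-5p was called, at a log2 fold change of 1.56 (edgeR adjusted p = 0.0176), against 12.5% of all miRNAs. Without the block it was at 1.19 (edgeR adjusted p = 0.00886), under the fold threshold, and without low-altitude muscle replicate 3 at 0.22 (edgeR adjusted p = 1). The estimates rested on low-altitude muscle replicate 3. miR-127-3p was at -0.34 ± 0.29 (SE, edgeR adjusted p = 0.802) with that library and at -1.35 ± 0.25 (SE, edgeR adjusted p = 0.0002) without it. miR-136-3p (edgeR adjusted p = 0.0289 with all libraries, under the fold threshold) moved from 1.01 to -0.21 and miR-432-5p from 0.62 to -0.56, so that both changed direction. Without high-altitude liver replicate 2, miR-493-3p was called in muscle, at 1.70 (edgeR adjusted p = 0.0145). With all libraries it was at 0.93 (edgeR adjusted p = 0.601). High-altitude liver replicates 1 and 3, which remained in that fit, had 0 counts of miR-493-3p, so the call rested on an empty comparison group. The share of all miRNAs called in that fit is not given here.

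The balance of the arms does not depend on the scaling of libraries, since both arms of a hairpin are counted in the same library. The 3p arm of miR-127 made up more than 99.3% of the counts of both arms over the 36 libraries. For miR-136 the 3p arm held 50.4% to 84.2%, with a median of 69.2%, and exceeded the 5p arm in every library. The low end was low-altitude spleen replicate 2 (Wilson 95% interval 48.5% to 52.3%) and the high end high-altitude lung replicate 2 (83.1% to 85.3%). Intervals here and below cover counting error only. miR-432 was almost only 5p, with 0% to 1.63% of counts on the 3p arm. miR-493 had a median 3p share of 50.1%, with the 3p arm ahead in 18 of 36 libraries, and ran from 0% to 68.9%. The high end was high-altitude spleen replicate 2 (Wilson 95% interval 65.3% to 72.4%), and low-altitude kidney replicate 1 was at 24.5% (22.0% to 27.2%). In 3 high-altitude libraries, liver replicates 1 and 3 and heart replicate 3, miR-493-3p had 0 counts beside 103, 128 and 91 counts of miR-493-5p, which allow 3p shares of up to 3.60%, 2.91% and 4.05% by the Wilson interval. Low-altitude muscle replicate 3 lay inside the range of the other 35 libraries for all 4 hairpins, at 99.4%, 81.1%, 0.407% and 46.7% for miR-127, miR-136, miR-432 and miR-493.

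High and low altitude were compared within each tissue by edgeR, 3 libraries against 3. No member was called in any of the 6 tissues. The share of all miRNAs called was 0% in heart, kidney, liver and lung, 0.0719% in muscle and 0.144% in spleen. At an unadjusted p under 0.05 there were 8 members in muscle, 1 in liver, against 4.24% of all miRNAs, and 0 in heart, kidney, lung and spleen, against 4.60% to 6.40%. Outside muscle, DESeq2 and the exact test of edgeR also called 0 members in each tissue, against 1.51% to 2.59% and 0.0719% to 0.791% of all miRNAs. DESeq2 gave no p for 3 members in heart, kidney and lung, 4 in liver and 1 in spleen. The member in liver was miR-127-3p, at a log2 fold change of high over low altitude of -1.38 ± 0.48 (SE, edgeR adjusted p = 0.726). In lung it was at 0.72 ± 0.33 (SE, edgeR adjusted p = 0.832). Over the 5 tissues other than muscle, the log2 fold change of miR-136-3p ran from -0.42 to 0.44 and that of miR-432-5p from -0.46 to 1.11. miR-493-5p ran from -1.16 to -0.28 and was lower at high altitude without overlap in heart, kidney and spleen (edgeR adjusted p = 0.748, 0.959 and 0.729), as were 4.03%, 3.67% and 5.54% of all miRNAs.

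In muscle the 3 abundant hairpins inside RTL1 had large estimates with wide errors. The log2 fold change of high over low altitude was -2.88 ± 0.84 (SE) for miR-127-3p (edgeR adjusted p = 0.675), -3.18 ± 1.27 for miR-136-3p (0.746) and -3.19 ± 1.09 for miR-432-5p (0.693). The 8 members with an unadjusted p under 0.05 compare with 6.18% of all miRNAs. Every high-altitude muscle library was below every low-altitude one for 6 of 14 members, against 5.18% of all miRNAs, and with TMM scaling for 7, against 4.6%. In RPM every high-altitude library was above for 1 member, the conserve-named miR-370-5p, against 3.24% of all miRNAs. The median log2 fold change was -3.19 over the members, -3.36 over the 88 downstream miRNAs and 0.00 over all 1391. The median over all 1391 was 0.00 in every tissue, so it gives no level particular to muscle. Without low-altitude replicate 3 the medians in muscle over members, downstream miRNAs and all miRNAs were -1.22, -0.63 and 0.00. There, 4 members had an unadjusted p under 0.05, against 4.39% of all miRNAs. The estimates of the 3 miRNAs were then -1.45 ± 0.38 (SE, edgeR adjusted p = 0.983), -1.07 ± 0.90 and -1.30 ± 0.67.

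The number of members called in muscle depended on the test. One edgeR fit over all 36 libraries, whose spread is shared by all tissues, called 7 members, against 2.44% of all miRNAs, with miR-127-3p at -2.65 (edgeR adjusted p = 0.00967). They were both arms of miR-127 and miR-136, miR-432-5p, miR-493-5p and miR-665-3p. DESeq2 called 3, miR-127-3p and both arms of miR-493, against 2.23% of all miRNAs, and gave no p for 8 members. The exact test of edgeR called 1, miR-665-3p, against 0.359%. Without low-altitude replicate 3, a choice made after seeing the data, the single edgeR fit called 0 members (edgeR adjusted p = 0.145 for miR-127-3p), against 0.144% of all miRNAs, with 3 at an unadjusted p under 0.05, against 6.25%. DESeq2 called 2, miR-493-5p and miR-665-3p, against 2.59%. miR-665-3p had 0 counts in all 3 high-altitude muscle libraries, against 1.798, 1.18 and 26.5 RPM at low altitude.

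Whether the effect of altitude differed between tissues was tested as an interaction in the fit over all libraries. No member was called by edgeR, against 0.216% of all miRNAs, and 6 members had an unadjusted p under 0.05, against 6.69%. miR-127-3p had the smallest p of the members (edgeR adjusted p = 0.208). It was called when low-altitude muscle replicate 1 or 2 was left out (edgeR adjusted p = 0.0134 and 0.0236) and was not without replicate 3 (edgeR adjusted p = 0.248). The fits with a call left replicate 3 with a single other library in its group. The share of all miRNAs called in them is not given here.

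In low-altitude muscle replicate 3 all 7 members named above were raised over the median of the other 5 muscle libraries. miR-127-3p was 18.1 times that median, at 16553 against 916 RPM, miR-136-3p 15.5 times, at 2217 against 143 RPM, and miR-432-5p 13.1 times, at 198 against 15.1 RPM. miR-127-5p was at 93.1 against 2.51 RPM and miR-136-5p at 515 against 45.3 RPM. miR-493-5p was at 333 against 13.95 RPM and miR-493-3p at 292 against 8.94 RPM. Of the scarce members, miR-665-3p was at 26.5 RPM, miR-665-5p at 1.21 RPM and miR-432-3p at 0.809 RPM, each against a median of 0, and the 4 conserve-named members had no counts in this library. Both arms of miR-127, miR-136 and miR-493 were raised. The 3p share of miR-127, at 99.4%, was below the 99.7% to 99.8% of the other 5 muscle libraries, and only this muscle library had counts of miR-432-3p.

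The rise was shared with the downstream clusters. The 88 downstream miRNAs summed to 51811 RPM in this library, against 456 to 2282 RPM in the other 5, and the ratio of the downstream sum to the members' sum was 2.56, against 0.628 to 1.86 in the other muscle libraries and 0.188 to 1.86 in the other 35 libraries. Among the 307 miRNAs with at least 10 RPM in a muscle library, 43, or 14%, were at least 5 times the highest of the other 5 libraries, and these included 8 of 8 members and 28 of 36 downstream miRNAs. The library was chosen by the sum of the members, so their count describes that choice and tests nothing. Among miRNAs with at least 10 RPM in another muscle library it was 6 of 6 members and 13 of 17 downstream miRNAs, against 7.64% of all, and with TMM scaling 7 of 8 and 26 of 36, against 11.7%, both chosen after seeing the data. For each library of the other tissues the same comparison within its tissue gave 0 members. For the other muscle libraries it also gave 0. That was fixed in advance, since their highest comparator was low-altitude replicate 3. Among the miRNAs with at least 10 RPM in another muscle library and a median above 0 in the other 5, the median ratio to that median was 16.8 over 6 members, 23.2 over 17 downstream miRNAs and 1.10 over all 255. This ratio too was chosen after seeing the data, and for the members it describes the choice of the library. With arms summed, 42 miRNA genes in the RefSeq order from DLK1 to DIO3 had counts in muscle. Of these, 41 were highest in this library, from MIR493 to MIR656. MIR329A, MIR376C and MIR134 had 0 counts in the other 5 muscle libraries, so the filter fixed their place. The member genes belong to the sum that chose the library, so their place tests nothing. Of the 307 single miRNAs above, 90 were highest in this library. miR-381-3p, at 25949 against 403 RPM, and miR-411a-5p, at 15762 against 647 RPM, were chosen after their values were seen, as the most abundant downstream miRNAs there.

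**Figure D2:**
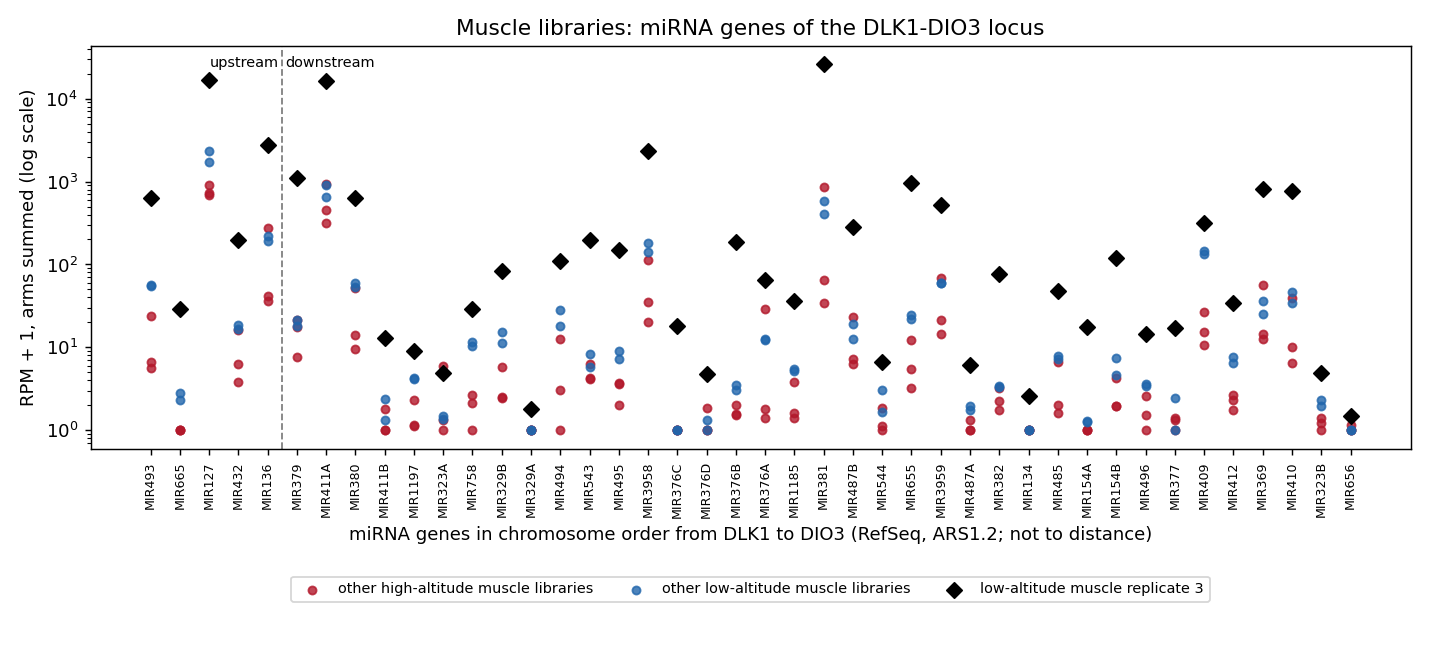
RPM + 1 on a log axis, arms summed, of the 42 miRNA genes with counts in the muscle libraries, in chromosome order from DLK1 to DIO3 and not to distance, with red and blue points for the other high- and low-altitude libraries and black diamonds for low-altitude replicate 3. The dashed line divides upstream from downstream genes, and the diamonds are highest at 41 of 42 genes. MIR329A, MIR376C and MIR134 had counts in no other muscle library. Among the 307 single miRNAs with at least 10 RPM in a muscle library, 90 were highest in low-altitude replicate 3.

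Outside the members and the downstream list, 7 other miRNAs passed the same 5-fold comparison in that library. The lists were made by name, and the positions of these 7 were not checked. They included miR-1-3p, at 57972 RPM against 1070 to 2736 RPM in the other muscle libraries, and miR-206-3p, at 7759 against 45.9 to 1080 RPM, while miR-133a-3p, at 222711 RPM, lay within the range of 178996 to 276291 RPM. The other 5 were conserve-named miR-2379-5p and miR-2379-3p, conserve-named miR-9143-5p, and 2 miRNAs without a known name whose counts were identical to those of miR-2379, at 6575 and 146. The endothelial list, with 2 of 2 names found, summed to 11603 RPM, against 6837, 7049.6 and 7232 RPM in the high-altitude libraries and 6206 and 6647 RPM in low-altitude replicates 1 and 2. It was led by miR-126-3p at 8093 RPM, and the 2 conserve-named forms of miR-126b were at 0. The erythroid list, with 3 of 4 names found, was at 13738 RPM, against 16925, 43024 and 29159.6 RPM in the high-altitude libraries and 14319 and 20179 RPM in the other low-altitude ones. All of it was miR-486-5p, with both arms of miR-144 at 0. miR-486-5p was also at 11880 to 53788 RPM in heart and at 0 in high-altitude spleen replicates 2 and 3. The sum is therefore not read as a measure of erythroid cells. The connective tissue and smooth muscle list, with 5 of 5 names found, was at 26056 RPM against 20688 to 58066 RPM, led by miR-143-3p. The neuronal markers miR-124a-3p and miR-9-5p were at 0 and 6.23 RPM, within 3.60 to 32.3 RPM for their sum in the other libraries. The heart list was at 1802 RPM against 1434 to 4784 RPM, the liver list at 25.9 against 6.27 to 101.1 RPM, the lung list at 12.4 against 11.7 to 49.2 RPM, the spleen and leukocyte list at 1388 against 784 to 1965 RPM, the kidney list at 65676 against 42260.5 to 204144 RPM and the epithelial list at 15.1 against 5.32 to 75.9 RPM. Of the kidney list in low-altitude muscle replicate 3, 65335 RPM was miR-10b-5p, so it is not read as a kidney signal. The part of these differences between muscle libraries in the level of the members was not tested.

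In the other tissues of the same goat the members were not raised in common. Their sum was 17579 RPM in kidney, the highest of 6 libraries, and 11512 RPM in liver, also the highest, against next values of 15052 and 11287 RPM. It was 2172 RPM in heart, the lowest of 6, 3593 RPM in lung and 3545 RPM in spleen, ranks 5 and 3 of 6. With TMM scaling it ranked 5 of 6 in kidney, at 11456 CPM, 2 in liver, at 8576 CPM, 5 in heart, at 2966 CPM, 6 in lung, at 2159 CPM, and 3 in spleen, at 2718 CPM.

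Over the means of the 12 groups, the miRNAs outside the members whose log2(RPM + 1) was most like that of the 3 named miRNAs were all of the downstream clusters. Among 301 miRNAs with a mean of at least 10 RPM, these were miR-3959-5p (Pearson r = 0.90), miR-487b-3p (0.87) and miR-369-5p (0.83) for miR-127-3p. For miR-136-3p they were miR-369-3p (0.94), miR-3959-5p (0.92) and miR-410-3p (0.92), and for miR-432-5p miR-380-3p (0.89), miR-655-3p (0.88) and miR-410-3p (0.82). The 12 points share the goats, and one of them holds low-altitude muscle replicate 3. Without that library, chosen after seeing the data, the first 3 for miR-127-3p were the same. For miR-136-3p, miR-874-3p (0.91) and miR-369-5p (0.88) entered in place of miR-369-3p and miR-410-3p. For miR-432-5p, miR-141-3p (0.85) entered in place of miR-410-3p. Of those that entered, miR-874-3p and miR-141-3p were not of the downstream clusters.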

How the data were processed

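The authors called bases with CASAVA 1.8, aligned reads by Bowtie to goat assembly ARS1 and deposited raw counts of reads per mature miRNA, 1 file per library, not normalized. Members and lists were chosen with earlier results of these data known. RPM is relative to the sum of counts of a library. edgeR 4.0.16 in R 4.3.3 (TMM normalization, quasi-likelihood tests, no filter) was fitted on all 1391 miRNAs, with Benjamini-Hochberg adjustment over all of them. A call required an adjusted p under 0.05 and, for contrasts, a log2 change of 1.5 or more in either direction. DESeq2 1.42.0 was an alternative. Other steps used Python 3.11.15, NumPy 2.4.6, SciPy 1.17.1, pandas 2.3.3 and matplotlib 3.10.9. The fits were tested on simulated data.

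Members with a mean of at least 10 RPM over the 6 libraries of a tissue were named with values in every tissue, and miR-127-3p, miR-136-3p and miR-432-5p with every library. The library standing apart was the muscle library with the highest summed RPM of the members. The labels give 3 goats for each population and number the libraries of each tissue from 1 to 3, and the same number within a population was taken as the same goat, which the labels do not state. Deviations from the group means over 308 miRNAs correlated at a mean of 0.0677 between tissues of a goat (90 pairs) and -0.0331 between goats of a population (180 pairs). Goats of the 2 populations are different animals, and the main fits between altitudes did not pair them by number. What libraries of the same number share in heart, where the values below were highest, was not tested. A block on the number gave 0 called members between altitudes in heart. Across populations the same number correlated at a mean of 0.438 for heart (0.353 to 0.513), 0.210 for spleen, 0.0483 for lung, 0.0274 for liver, 0.00381 for muscle and -0.281 for kidney. Gene names and their order came from RefSeq for ARS1.2, without coordinates, since reads were mapped to ARS1. The markers miR-449a-5p, miR-192-5p and miR-451-5p were not among the listed names.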

Additional observations from a re-analysis of the deposited data

Results flagged for a closer look

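In a Dixon test of 6 libraries for each of the 7 members named with values and their sum in each tissue, 14 of 48 tests on RPM found a library far from the rest, and chance flags about 1 in 20 groups. Of these, 8 were low-altitude muscle replicate 3, at 16553 RPM of miR-127-3p, 93.1 of miR-127-5p, 2217 of miR-136-3p, 515 of miR-136-5p, 198 of miR-432-5p, 333 of miR-493-5p, 292 of miR-493-3p and 20230 of their sum with the other members. That library was chosen by this sum, so the rate for chance does not apply to these 8. With TMM scaling, chosen after seeing the data, these 8 remained and 0 of the other 6 did. High-altitude lung replicate 2 was far above the other lung libraries in 5 tests, at 6688 RPM of miR-127-3p (others 2954 to 4059), 20.4 of miR-127-5p (2.49 to 8.36), 329 of miR-136-3p (91.3 to 159), 140.5 of miR-432-5p (13.5 to 44.4) and 7276 of the sum (3141 to 4228). With TMM scaling it ranked 1 of 6 for miR-432-5p, at 69.3 CPM (others 14.1 to 36.7), miR-136-3p, at 162 (66.1 to 125), and miR-127-5p, at 10.1 (1.58 to 6.06), 2 for the sum, at 3589.98 (2159 to 5669.8), and 3 for miR-127-3p, at 3299.8 (1970.0 to 5443). Low-altitude kidney replicate 3 was above the others for miR-127-3p, at 15453 RPM (others 11569 to 12941), but 5 of 6 in rank with TMM scaling, at 10070.4 CPM (others 8382 to 21049). The tests share libraries and members and are not independent. What set these libraries apart was not tested.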

How the results depend on the processing

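Of the counts of calls, levels and arm shares, 311 comparisons with an alternative kept their side and 14 moved. Of the log2 fold changes of miR-127-3p, miR-136-3p and miR-432-5p, 481 kept direction and side, 4 passed the threshold and 17 reversed. In muscle between altitudes, DESeq2 called 3 members, the exact test 1 and one fit over all libraries 7, against 0, and DESeq2 without low-altitude replicate 3, added after seeing the data, called 2. With the arms of a hairpin summed, so that fewer entries were tested, 3 summed entries were called in kidney. The 6 of the main fit were single arms, both arms of miR-127, miR-136 and miR-493, so the counts differ in unit. With goat as replicate block, 1 member was called in muscle against the other tissues (12.5% of all miRNAs), against 0 (13.7%). Between altitudes, a block on the replicate number, which joins different goats of the 2 populations, gave 0 members in each tissue (0% of all miRNAs). With goat as replicate block, 5 members were called across tissues (34.2%) and 0 in the interaction (0.144%). The goat block also gave 6 higher in kidney, among 118 of all 1391 miRNAs, against 141 without the block. It called 2 members in liver against the other tissues (8.77% of all miRNAs), against 1 (12.1%), and 1 in lung (10.2%), against 0 (12.4%). The members' sum in spleen was 2614 CPM with TMM scaling, against 3429 RPM. With TMM scaling, added after seeing the data, miR-127-3p was at 14342 CPM in kidney and 2299.9 in spleen, miR-136-3p at 128 in heart and miR-432-5p at 14.3 in spleen, against RPM of 12967, 3007, 97.8 and 18.5.

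Leaving out 1 library in turn gave 0 to 1 members called in muscle against the other tissues, 0 to 1 in the interaction, 4 to 8 in kidney and 5 to 7 across tissues. A group of 2 libraries remains then, and its spread is pooled with that of the other groups. The 8 in kidney came without low-altitude muscle replicate 3. In that fit 13.2% of all miRNAs were called in kidney in either direction, against 12.4% with all libraries. Those higher in kidney were 157 of 1391, against 141. The same fit called 13.3% in muscle against the other tissues, 0.144% in the interaction and 38.7% across tissues. With all libraries these shares were 13.7%, 0.216% and 39.3%. The shares in the other fits that left out 1 library are not given here. The log2 fold changes that reversed were of miR-127-3p in heart (0.12, but -0.0212 with arms summed, -0.00533 with filterByExpr, -0.14 in one fit, and -0.24 to 0.41 leaving out a library) and kidney (0.03, but -0.0472 with library size only, and -0.18 to 0.41). For miR-136-3p these were heart (-0.07, but 0.10 with library size only, and -0.25 to 0.0483), kidney (0.28, -0.10 to 0.56), spleen (0.41, -0.0184 to 0.74) and muscle against the other tissues (1.01, -0.21 to 1.15). For miR-432-5p it was muscle against the other tissues (0.62, but -0.17 with library size only, and -0.56 to 0.68). The cause of these changes was not tested, apart from the fewer entries. Depth limits the scarce members most, since 3 counts corresponded to 0.422 RPM in the smallest library, of 7108635 counts.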
